A study of Mus musculus with 6 samples.

Results

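The core circadian clock genes Clock, Npas2, Arntl, Arntl2, Per1, Per2, Per3, Cry1, Cry2 and Ciart were read in C2C12 cells, a mouse myoblast line whose cells divide as muscle precursors. These 10 genes were taken by symbol from a table of 22272 gene symbols, and all 10 were present and passed the filter on low counts. Npas2 passed it through its ChREBP-beta libraries alone. In 3 libraries the wild-type line overexpressed ChREBP-beta, the short and active form of the glucose-responsive transcription factor encoded by Mlxipl, and in the 3 control libraries wild-type cells carried green fluorescent protein (GFP). All cells were undifferentiated, at day 0. How the cells were made to express either protein, the hour of harvest and the time since the last medium change are not stated in the sources at hand. Nor is it stated whether replicates came from separate cultures, and p-values then reflect only the spread among these samples, possibly a technical one.

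The mammalian clock is a feedback loop of transcription. CLOCK, or its paralog NPAS2, pairs with BMAL1 (encoded by Arntl) or BMAL2 (Arntl2) and activates genes with E-box sequences, among them the Per, Cry and Ciart genes. The PER and CRY proteins and CIART then return to the nucleus and repress that activator, and a second loop of REV-ERB and ROR nuclear receptors controls Arntl. In cultured cells the loop runs in each cell, so that the level of a clock transcript in a bulk sample depends on the phase of the cells as well as on the amount made. Fewer cells expressing a gene and less RNA per cell cannot be told apart in these bulk samples.

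Of the 10 clock genes, 9 differed between ChREBP-beta and GFP cells (edgeR's quasi-likelihood test with Benjamini-Hochberg adjustment, adjusted p under 0.05 over all 12166 genes tested). Clock, Npas2, Cry1 and Cry2 were higher and Arntl, Arntl2, Per1, Per2 and Per3 were lower, while Ciart was not called. Each arm of the loop thus held called members in both directions: the Clock side of the activator was higher and the Arntl side lower, and among the repressors the Cry genes were higher and the Per genes lower. Across all genes tested 58.7% were called, 29.5% higher and 29.3% lower, so a call by itself was common in this comparison. The median absolute log2 fold change was 0.69 over the 10 clock genes and 0.23 over all genes tested. The 9 called genes were also those in which the libraries of both groups did not overlap, which held for 63.2% of all genes tested (31.3% higher and 32% lower). Only Npas2, with no GFP read, passed a 2-fold minimum as well, which 11.5% of all genes did.

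**Figure D1:**
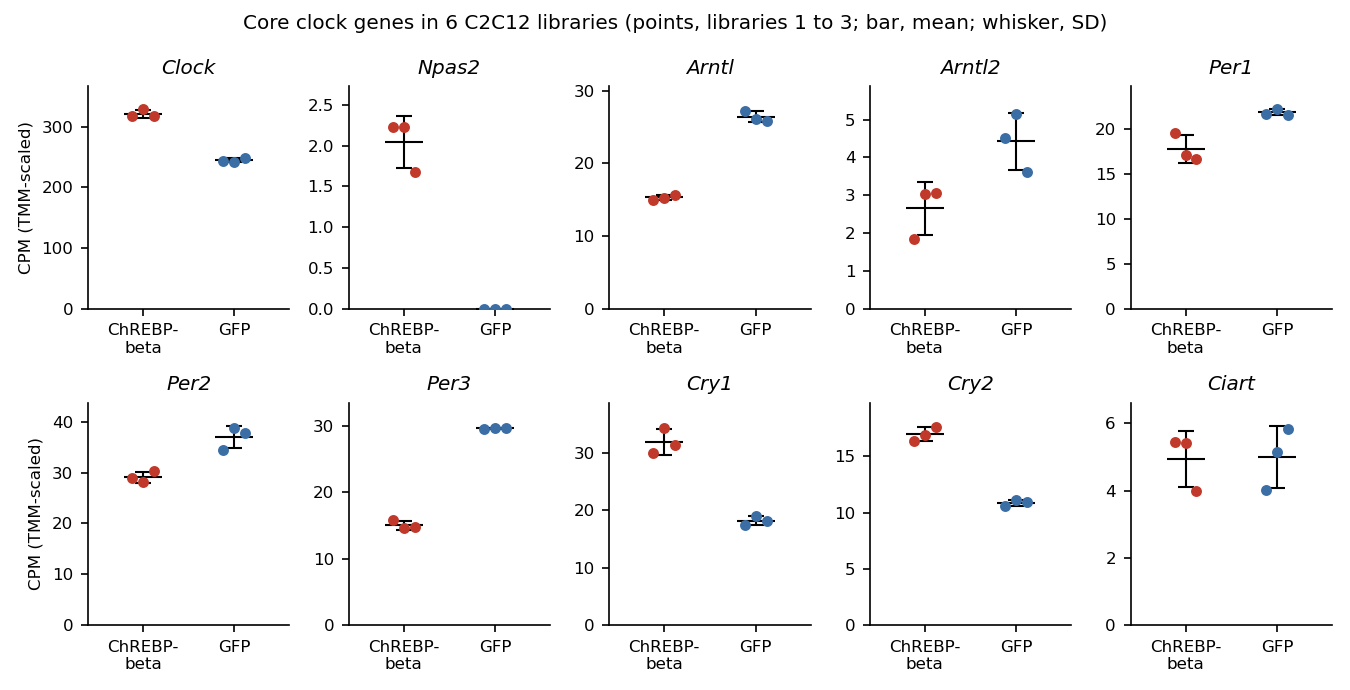
Levels in CPM (counts per 1000000 counts of the library, scaled by TMM factors) of the 10 clock genes in the 3 ChREBP-beta libraries (red, left) and the 3 GFP libraries (blue, right), with the mean as a bar and the SD as whiskers. Each panel has its own axis from 0, and in Ciart alone the libraries of both groups overlap.

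The depth was even, with 17600238 to 19163834 deposited counts per library. Mlxipl was read at 222, 215 and 220 CPM in ChREBP-beta libraries 1 to 3, against 0.576, 0.719 and 0.501 CPM in GFP libraries 1 to 3, as the labels say. Summed levels of 8 myoblast markers were 153 to 161 CPM in ChREBP-beta libraries and 408 to 450 CPM in GFP libraries, with 7 called lower, from Myod1 at 24.9-fold to Itga7 at 2.07-fold, and Mcam called 2.24-fold higher. Of 6 fibroblast markers the sums were 875 to 900 CPM with ChREBP-beta and 827 to 861 CPM with GFP, but all 6 were called, Dpt, Pdgfra, Pi16 and Ly6a higher (Dpt 4.26-fold and Pdgfra 1.68-fold) and Dcn and Cd34 lower (3.90-fold and 1.20-fold). Markers of cells foreign to the culture followed libraries: 7 hepatocyte markers summed to 19.5 to 26.7 CPM with ChREBP-beta and to 0.576, 1.11 and 31.6 CPM in GFP libraries 1 to 3. Sums over 6 lung epithelium markers were 69.3 to 91.6 CPM with ChREBP-beta and 0.576, 136 and 94.9 CPM in GFP libraries 1 to 3. Sums over 8 blood markers were 6.53 to 10.7 CPM with ChREBP-beta and 4.08 to 11.6 CPM with GFP. Every marker of these lists had a count in at least 1 library, and the part of any of these lists in the clock gene differences was not tested.

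Clock encodes the DNA-binding partner of BMAL1 and was the most abundant of the 10 per exon length (ENSMUSG00000029238.11, chr5:76209868-76304792, minus strand, GRCm38). It was read at 317, 330 and 317 CPM in ChREBP-beta libraries 1 to 3, against 244, 242 and 249 CPM in GFP libraries 1 to 3. All ChREBP-beta libraries lay above all GFP libraries, and the spread within a group was small beside the gap. The log2 fold change was 0.39 (SE 0.029, edgeR adjusted p = 2.98e-11), a 1.31-fold rise.

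Npas2, the paralog that can take the place of CLOCK beside BMAL1 (ENSMUSG00000026077.15, chr1:39193731-39363236, plus strand, GRCm38), had no read in any GFP library. It had 41, 42 and 29 reads in ChREBP-beta libraries 1 to 3, which is 2.23, 2.23 and 1.68 CPM, against 0, 0 and 0 reads in GFP libraries 1 to 3. With a floor of 3 counts over the GFP group, or 0.0544 CPM, Npas2 was at least 37.8-fold higher with ChREBP-beta (edgeR adjusted p = 1.64e-08). It passed the filter on low counts through its ChREBP-beta libraries alone, so this p is no independent support for the rise. Lung marker sums were 69.3 to 91.6 CPM in ChREBP-beta libraries and 0.576, 136 and 94.9 CPM in GFP libraries 1 to 3. Hepatocyte marker sums were 19.5 to 26.7 CPM with ChREBP-beta and 0.576, 1.11 and 31.6 CPM in GFP libraries 1 to 3. Blood marker sums were 6.53 to 10.7 CPM with ChREBP-beta and 4.08 to 11.6 CPM with GFP. Any part of such cells in the Npas2 reads was not tested. Npas2 was nevertheless the rarer paralog, with 0.00636 ± 0.000944 Npas2 reads per Clock read in ChREBP-beta libraries (SD, n = 3). Per length of annotated exon, the mean level of Clock was 54.8 times that of Npas2 in those cells.

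The partners of CLOCK moved the other way. Arntl encodes BMAL1, the one subunit without which the mouse clock stops (ENSMUSG00000055116.8, chr7:113207465-113314126, plus strand, GRCm38). It was read at 15.0, 15.3 and 15.7 CPM in ChREBP-beta libraries 1 to 3, against 27.3, 26.1 and 25.8 CPM in GFP libraries 1 to 3. The groups stood far apart relative to their spread, and Arntl fell by 0.79 on the log2 scale (SE 0.077, edgeR adjusted p = 3.68e-09), or 1.73-fold. An antisense transcript, Gm45355, shares 33 exon bases with Arntl, and the strand setting of the counting is not given.

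Arntl2 encodes BMAL2, a paralog of BMAL1 (ENSMUSG00000040187.15, chr6:146796055-146833529, plus strand, GRCm38). It was read at 1.85, 3.03 and 3.06 CPM in ChREBP-beta libraries 1 to 3, against 4.50, 5.14 and 3.62 CPM in GFP libraries 1 to 3. The groups did not overlap, but the nearest libraries were close. The log2 fold change was -0.74 (SE 0.23, edgeR adjusted p = 0.00832). The call was lost without ChREBP-beta replicate 1 (log2 fold change -0.53, edgeR adjusted p = 0.0558) and without GFP replicate 2 (log2 fold change -0.61, edgeR adjusted p = 0.0572). With GFP replicates 1 and 2 both left out, 1 GFP library remained and the log2 fold change was -0.45. The ratio of Arntl2 to Arntl reads was 0.172 ± 0.0427 with ChREBP-beta and 0.167 ± 0.0285 with GFP (SD, n = 3 each), and these ranges overlapped (two-sided exact permutation test, p = 0.9).

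With Clock higher and Arntl lower, the ratio of their reads, a measure chosen after the values were seen, was 20.3 to 21.6 in ChREBP-beta libraries and 8.95 to 9.63 in GFP libraries, a 2.26-fold difference of the means that no scaling of the libraries can change.

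Per1, Per2 and Per3 encode the period repressors, of which PER1 and PER2 carry most of the clock function in mice. Per3 fell the most of the family (ENSMUSG00000028957.12, chr4:151003652-151044665, minus strand, GRCm38). It was read at 15.8, 14.6 and 14.7 CPM in ChREBP-beta libraries 1 to 3, against 29.5, 29.6 and 29.7 CPM in GFP libraries 1 to 3. The GFP libraries were nearly equal and the ChREBP-beta libraries all lay far below them, with a log2 fold change of -0.98 (SE 0.075, edgeR adjusted p = 4.34e-11), or 1.97-fold lower.

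Per2 (ENSMUSG00000055866.9, chr1:91415982-91459324, minus strand, GRCm38) was read at 28.8, 28.2 and 30.3 CPM in ChREBP-beta libraries 1 to 3, against 34.5, 38.8 and 37.7 CPM in GFP libraries 1 to 3. Its log2 fold change was -0.35 (SE 0.065, edgeR adjusted p = 6.55e-05). Per1, a gene that serum, cAMP and glucocorticoid signals quickly induce (ENSMUSG00000020893.17, chr11:69095217-69109960, plus strand, GRCm38), was read at 19.5, 17.0 and 16.7 CPM in ChREBP-beta libraries 1 to 3, against 21.7, 22.2 and 21.6 CPM in GFP libraries 1 to 3. The difference was the smallest among the called clock genes, with a log2 fold change of -0.30 (SE 0.083, edgeR adjusted p = 0.00336). With GFP replicates 1 and 2 both left out, the libraries with the fewest hepatocyte marker reads, 1 GFP library remained. The log2 fold change of Per1 was then -0.28. In both genes all ChREBP-beta libraries lay below all GFP libraries.

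The Per genes did not all fall by the same amount. Per3 reads per Per2 read were 0.547, 0.519 and 0.485 in ChREBP-beta libraries 1 to 3, against 0.856, 0.763 and 0.787 in GFP libraries 1 to 3. This ratio differed by -0.63 on the log2 scale (SE 0.071) with no overlap of the libraries (exact permutation test over libraries, two-sided, p = 0.1, which is the lowest p that 3 libraries a group can give; 0.2 adjusted over the 4 ratios tested). Per1 reads per Per2 read were 0.610 ± 0.0631 with ChREBP-beta and 0.591 ± 0.0326 with GFP (SD, n = 3 each), and the libraries overlapped (exact permutation test, p = 0.7). Summed over the family, Per reads were 61.8 ± 2.15 CPM with ChREBP-beta and 88.4 ± 2.51 CPM with GFP (SD, n = 3 each).

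Cry1 and Cry2 encode the cryptochromes, the repressors that bind the activator directly. Cry1 (ENSMUSG00000020038.10, chr10:85131700-85185064, minus strand, GRCm38) was read at 30.0, 34.4 and 31.4 CPM in ChREBP-beta libraries 1 to 3, against 17.5, 19.1 and 18.1 CPM in GFP libraries 1 to 3. The lowest ChREBP-beta library stood well above the highest GFP library, and the log2 fold change was 0.81 (SE 0.075, edgeR adjusted p = 1.32e-09), a 1.75-fold rise. Cry2 (ENSMUSG00000068742.11, chr2:92403646-92434043, minus strand, GRCm38) was read at 16.4, 16.9 and 17.6 CPM in ChREBP-beta libraries 1 to 3, against 10.6, 11.1 and 10.9 CPM in GFP libraries 1 to 3. It too was separated between the groups, with a log2 fold change of 0.64 (SE 0.093, edgeR adjusted p = 2.27e-06). The transcript D930015M05Rik runs opposite to Cry2 and shares 295 exon bases with it, so reads of either could not be told apart if strand was not used.

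Cry1 reads per Cry2 read were 1.83, 2.04 and 1.78 in ChREBP-beta libraries 1 to 3, against 1.65, 1.72 and 1.66 in GFP libraries 1 to 3. The libraries did not overlap, but the log2 difference was only 0.17 (SE 0.062; exact permutation test, two-sided, p = 0.1, the lowest possible; 0.2 adjusted over the 4 ratios). Together the Cry genes were read at 48.9 ± 2.47 CPM with ChREBP-beta and 29.1 ± 1.08 CPM with GFP (SD, n = 3 each). The ratio of summed Cry to summed Per reads, again chosen after the values were seen, was 0.724 to 0.859 in ChREBP-beta libraries and 0.326 to 0.334 in GFP libraries.

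Ciart, also called Chrono, encodes a repressor that binds BMAL1 (ENSMUSG00000038550.10, chr3:95878503-95882251, minus strand, GRCm38). It was read at 5.44, 5.42 and 3.99 CPM in ChREBP-beta libraries 1 to 3, against 4.03, 5.14 and 5.85 CPM in GFP libraries 1 to 3. The ranges lay across each other, and the log2 fold change was -0.01 (SE 0.18, edgeR adjusted p = 0.963). The approximate 95% interval of that log2 change, -0.37 to 0.35, holds changes as large as those of Per1 and Per2. A change of that size in Ciart is therefore not excluded.

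**Figure D2:**
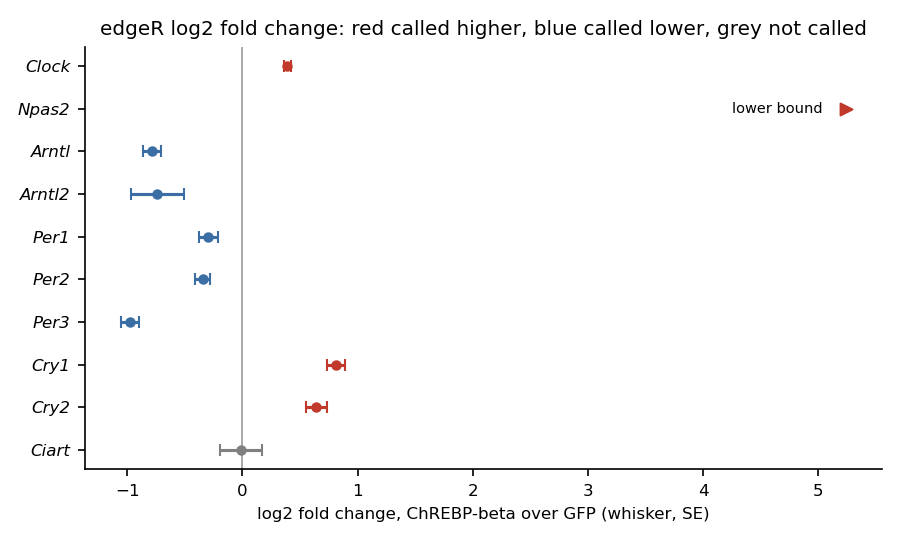
The edgeR log2 fold change of each clock gene, ChREBP-beta over GFP, with its SE as whiskers (red called higher, blue called lower, grey not called). Npas2, with no GFP read, is drawn as an arrowhead at its lower bound of 5.24, and the other called genes lie between -0.98 and 0.81.

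**Figure D3:**
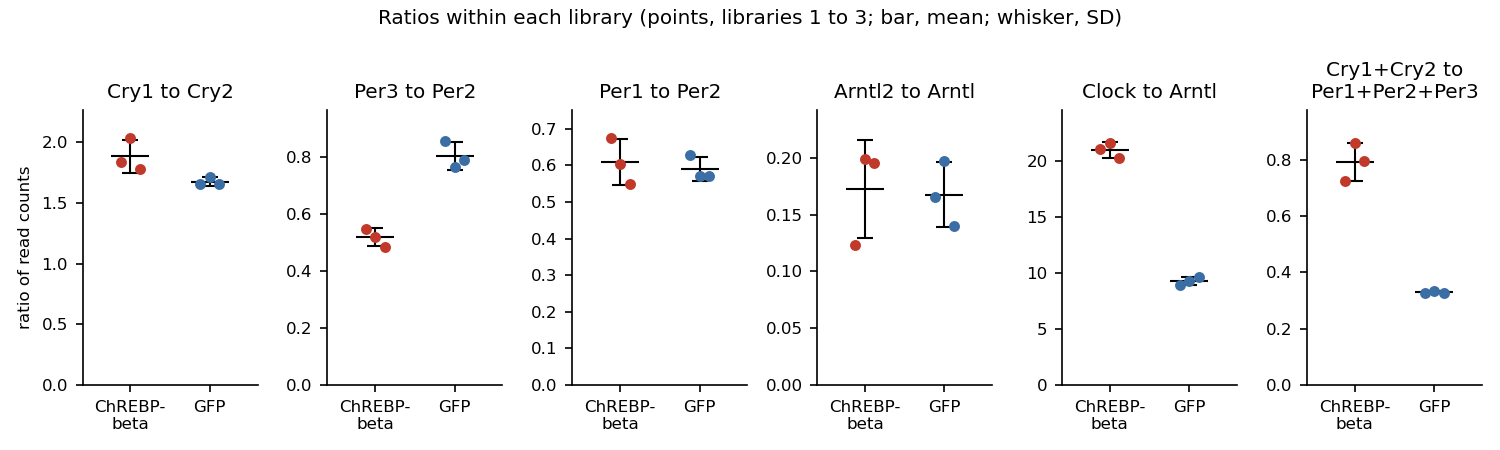
Ratios of read counts within each library for 4 paralog pairs, for Clock to Arntl and for summed Cry to summed Per genes, in ChREBP-beta libraries (red, left) and GFP libraries (blue, right), with mean and SD. Per3 to Per2, Clock to Arntl and Cry to Per stand apart between the groups with wide gaps, Cry1 to Cry2 with a narrow one, and Per1 to Per2 and Arntl2 to Arntl overlap.

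Levels of different genes were set side by side per kilobase of annotated exon. Clock led in both groups, at 23.4 ± 0.523 CPM per kb with ChREBP-beta and 17.9 ± 0.242 CPM per kb with GFP (SD, n = 3 each). The order below it in ChREBP-beta cells was Cry1 (9.57), Per2 (4.97), Per1 (3.15), Cry2 (2.69), Ciart (2.19), Arntl (2.04), Per3 (1.56), Arntl2 (0.465) and Npas2 (0.427), all in CPM per kb. Neighbours in that order overlapped between libraries only for Ciart with Arntl and for Arntl2 with Npas2. In GFP cells the order after Clock was Per2 (6.32), Cry1 (5.46), Per1 (3.87), Arntl (3.51), Per3 (3.08), Ciart (2.21), Cry2 (1.72) and Arntl2 (0.777), with Npas2 at 0 and no overlap between neighbours. Cry1 and Per2 thus changed places between the groups, and Arntl and Per3 stood below Cry2 with ChREBP-beta and above it with GFP. The order depends on the length used: with the longest annotated transcript in place of all exons, 6 of the 10 genes kept their rank with ChREBP-beta and 3 with GFP, while Clock stayed first and Arntl2 and Npas2 last in both.

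**Figure D4:**
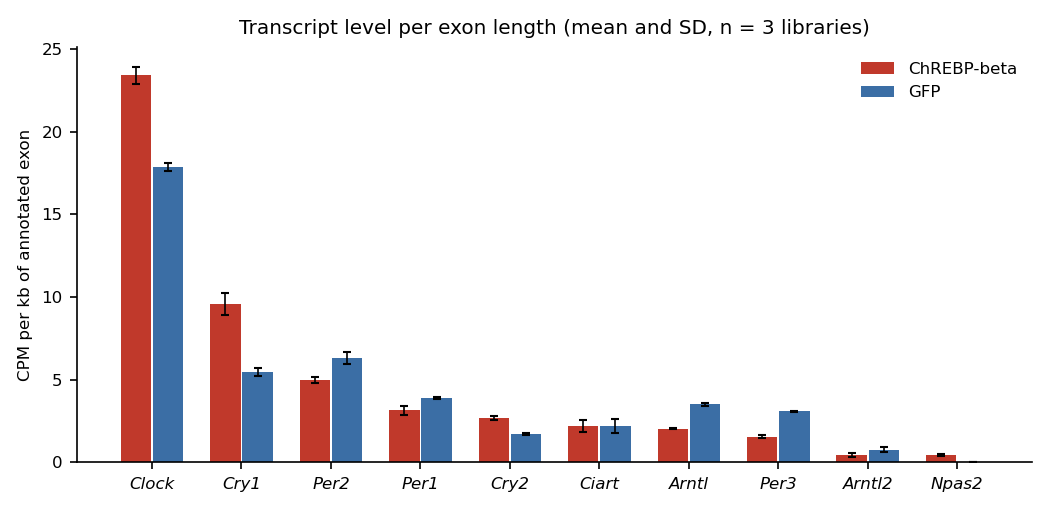
Mean level of each clock gene in CPM per kilobase of annotated exon (GENCODE M21, union of exons) with ChREBP-beta (red, left) and GFP (blue, right), with SD over 3 libraries as whiskers. Clock stands above all others in both groups, Cry1 is above Per2 with ChREBP-beta and below it with GFP, and Npas2 has no GFP bar.

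Promoter sequences were examined because E-boxes, D-boxes and ROR elements are the inputs through which the loop drives its own genes. RefSeq windows (GRCm38.p6) from 250 bases before to 50 bases after each annotated start were found for 9 of the 10 genes, 13 windows in all. Per2 was not among them. Both strands were searched for the E-box CACGTG, the E-prime box CACGTT, the D-box TTANGTAA, the ROR element core TAGGTCA, the cyclic AMP response element TGACGTCA and the carbohydrate response element of ChREBP, a pair of E-box-like sites with a fixed spacing. None of these motifs overlapped another in the windows of the clock genes. Shown here are 250 bases upstream of the start for Ciart, Cry1 and Per1, the genes with E-boxes, and for Per3, with D-boxes, and 30 bases around the ROR core of Arntl, which lies just inside the transcript, with each motif match in capitals (in Cry1 the E-prime box, read as AACGTG on this strand, and then the E-box). They are Ciart at chr3:95882229-95882478 (minus strand), Cry1 at chr10:85185055-85185304 (minus strand), Per1 at chr11:69098699-69098948 (plus strand), Per3 at chr4:151044666-151044915 (minus strand) and Arntl at chr7:113207529-113207558 (plus strand), each printed 5′ to 3′ on the gene's own strand.
Ciart: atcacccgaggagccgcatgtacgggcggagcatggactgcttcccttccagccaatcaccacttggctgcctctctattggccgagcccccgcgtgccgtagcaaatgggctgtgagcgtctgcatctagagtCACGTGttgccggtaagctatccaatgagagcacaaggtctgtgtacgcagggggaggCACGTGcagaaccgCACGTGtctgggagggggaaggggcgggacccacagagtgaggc
Cry1: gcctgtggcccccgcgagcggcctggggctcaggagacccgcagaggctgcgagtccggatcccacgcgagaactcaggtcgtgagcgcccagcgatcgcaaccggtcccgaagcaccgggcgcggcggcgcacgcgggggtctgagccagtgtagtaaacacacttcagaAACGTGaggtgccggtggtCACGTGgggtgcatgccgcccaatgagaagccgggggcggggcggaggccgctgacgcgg
Per1: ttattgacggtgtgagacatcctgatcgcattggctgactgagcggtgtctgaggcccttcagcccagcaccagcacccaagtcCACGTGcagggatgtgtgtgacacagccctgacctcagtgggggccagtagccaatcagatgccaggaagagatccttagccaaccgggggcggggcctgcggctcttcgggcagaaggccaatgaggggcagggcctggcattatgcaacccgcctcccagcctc
Per3: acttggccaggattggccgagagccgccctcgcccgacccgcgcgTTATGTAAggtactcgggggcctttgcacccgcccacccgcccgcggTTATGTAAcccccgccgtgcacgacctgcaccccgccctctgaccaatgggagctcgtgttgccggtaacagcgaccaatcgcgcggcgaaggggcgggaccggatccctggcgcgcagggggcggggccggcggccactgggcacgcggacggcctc
Arntl: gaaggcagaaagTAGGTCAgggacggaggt

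Ciart held 3 E-boxes, beginning 116, 58 and 44 bases before its start. At least 3 E-boxes, at any positions, were found in 0.0883% of all 32851 RefSeq windows, where 7.15% hold at least 1. The Ciart transcript was the one clock transcript not called. Cry1, which rose, held 1 E-box 60 bases before its start and an E-prime box 79 bases before it, and the first window of Per1, which fell, held 1 E-box 166 bases before its start. Among these clock genes with an E-box, Cry1 was called higher, Per1 was called lower and Ciart was not called. Any part of the E-box in these directions was not tested, and Per2 had no window. Per3 held 2 D-boxes with the same letters, 205 and 158 bases before its start. At least 1 D-box match was found in 2.32% of windows. At least 2 matches, at any positions and with the same letters or not, were counted in 0.198%. Both strands were searched, so a site that reads as a D-box on each strand may count as 2 matches. The 0.198% may therefore include windows with a single D-box site. Arntl held the ROR core, present in 2.61% of windows, 30 bases after its second start. Cry2, which rose, held an E-prime box 166 bases before its start, as 4.68% of windows do. The windows of Clock, Npas2 and Arntl2 held none of the letters searched, and no clock gene window held the cyclic AMP element (1.79% of windows) or the carbohydrate response element (0.119%). A match or its absence describes these letters in this window only.

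**Figure D5:**
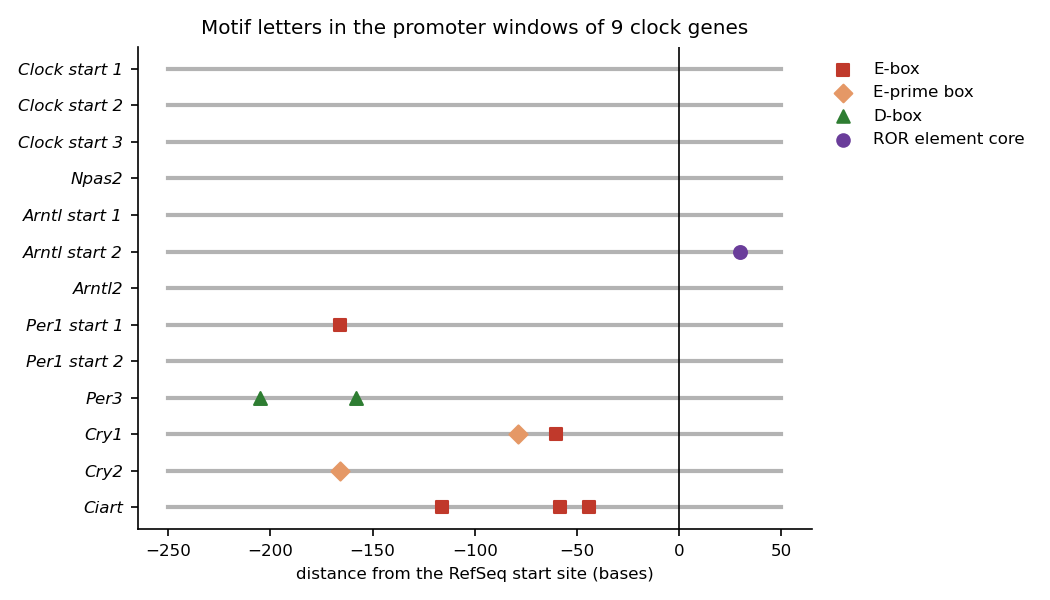
Position of each motif match in the 13 RefSeq promoter windows of 9 clock genes, as distance in bases from the annotated start site (vertical line), with grey bars for the window searched. Ciart carries 3 E-boxes, Per3 carries 2 D-boxes, and the windows of Clock, Npas2 and Arntl2 are empty.

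The second loop and the output factors around these genes also moved in both directions. Of 11 listed genes 10 were tested, of which 6 were higher, 3 lower and 1 (Nr1d2) not called, with a median log2 fold change of 0.20 against -0.0040 over all genes tested and 58.7% of all genes called. Bhlhe40, a repressor that competes for E-boxes, rose 2.61-fold to 236 ± 4.40 CPM with ChREBP-beta, against 90.4 ± 2.38 CPM with GFP (SD, n = 3 each; edgeR adjusted p = 6.23e-21). Tef, an activator at D-boxes, was lower at 88.0 ± 4.66 CPM with ChREBP-beta, against 116 ± 5.63 CPM with GFP (SD, n = 3 each; edgeR adjusted p = 2.33e-08). Nr1d1, which encodes the Arntl repressor REV-ERB-alpha and whose counts include split reads in all 6 libraries, was lower at 24.7 ± 1.39 CPM with ChREBP-beta, against 33.3 ± 0.504 CPM with GFP (SD, n = 3 each; edgeR adjusted p = 5.08e-06).

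Genes named next were picked after their values were seen. Dbp, a D-box activator driven directly by the clock, whose counts also include split reads, had a log2 fold change of -1.43 (SE 0.27, edgeR adjusted p = 6.47e-05). Rora and Rorb encode nuclear receptors that can activate Arntl, and both were higher at low levels, Rora at 1.20 CPM with ChREBP-beta and 0.450 CPM with GFP, and Rorb at 1.44 CPM with ChREBP-beta and 0.539 CPM with GFP (edgeR adjusted p = 0.0112 and 0.00672). Nr1d2, also a REV-ERB gene, was not called, at 75.1 CPM with ChREBP-beta and 77.5 CPM with GFP (edgeR adjusted p = 0.38). Any link of these transcripts to the level of Arntl was not tested.

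Among kinases, phosphatases and ubiquitin ligases that set the stability of the PER and CRY proteins, 20 of 21 were tested, of which 9 were higher, 3 lower and 8 not called (median log2 fold change 0.10). The share called, 60%, was near the 58.7% of all genes. Prkaa2, a catalytic subunit of AMP-activated kinase, which marks CRY1 for breakdown, rose 2.53-fold to 9.47 ± 0.566 CPM with ChREBP-beta, against 3.74 ± 0.0451 CPM with GFP (SD, n = 3 each; edgeR adjusted p = 2.06e-08). Usp7, a deubiquitinase that stabilizes CRY1, rose 1.27-fold (edgeR adjusted p = 2.68e-09), and Ppp1cb, a catalytic subunit of protein phosphatase 1, was 1.30-fold lower (edgeR adjusted p = 4.28e-11).

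Coregulators and partners of both complexes had 10 of 20 tested members higher, 4 lower and 6 not called (median log2 fold change 0.08). That is 70% called, against 58.7% of all genes tested. Wdr5, a histone methyltransferase subunit found with PER proteins, rose 1.51-fold, Sfpq, a corepressor of the PER complex, 1.27-fold and the RNA helicase gene Dhx9 1.17-fold (edgeR adjusted p = 6.69e-12, 1.60e-10 and 4.45e-07).

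Of 15 relatives of Clock, Npas2 and Arntl in the bHLH-PAS family and its coactivators, 11 were tested, with 3 higher, 5 lower and 3 not called (median log2 fold change -0.01), or 72.7% called beside 58.7% of all genes. Hif1a, the hypoxia factor subunit, rose 1.38-fold, Ahr, the dioxin receptor, was 1.70-fold lower and Ncoa2, a coactivator, 1.55-fold lower (edgeR adjusted p = 2.78e-13, 6.32e-13 and 5.84e-10). Without ChREBP-beta replicate 1 the count called in this family was 5 in place of 8, with 55.1% of all genes called in that fit. Hif3a, Sim1, Npas1 and Npas3 had too few reads to be tested.

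Glucocorticoid-responsive genes, which share a route of induction with Per1, had 9 of 10 members tested, with 2 higher, 4 lower and 3 not called (median log2 fold change -0.19). The 66.7% called compare with 58.7% of all genes. Mt2, a metallothionein, was 2.64-fold lower and Errfi1, a feedback inhibitor of EGF receptor signalling, 1.42-fold lower, whereas Fkbp5, a chaperone of the glucocorticoid receptor, rose 1.37-fold (edgeR adjusted p = 1.02e-20, 9.99e-10 and 3.60e-08).

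For each clock gene the tested gene with the most similar profile was found as the smallest Euclidean distance between centred log2 CPM values over the 6 libraries. With 2 groups this distance mostly reflects the size of the fold change. It was smallest for Clock with Nap1l1 (distance 0.026; log2 fold change 0.38), and small for Per3 with Ezr (0.048; -0.95), Per1 with Phtf1 (0.048; -0.30), Arntl with Gstm2 (0.049; -0.78), Cry2 with Pdxk (0.052; 0.62), Per2 with Mxra8 (0.058; -0.34) and Cry1 with Pabpc4 (0.068; 0.81). The low-count genes had looser neighbours: Ciart with Wdr89 (0.19; -0.12), Npas2 with C1ql2 (0.30), which also had no GFP read, and Arntl2 with Calr3 (0.32; -0.88).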

How the data were processed

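Total RNA of 6 C2C12 samples, 3 with ChREBP-beta and 3 with GFP, was sequenced, and samples were grouped by their titles. The authors deposited estimated counts per gene symbol, not normalized, with a column per library. Of these, 7.74% are not whole numbers (tolerance 1e-06), so some reads were divided between genes, though none of the clock gene values were. The submitters' processing notes list TopHat2 2.0.0, Bowtie2 2.0.0.5 and fastp as tools, and GRCg6a, which is a chicken genome, as the build, while the symbols are those of mouse. For the mouse build, counting tool and strand setting nothing is given in the sources used here.

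The 24 symbols found on more than 1 row were summed and the sums rounded. edgeR 4.0.16 (R 4.3.3) was used with filterByExpr (minimum count 10, minimum total 15), TMM factors, glmQLFit and glmQLFTest without covariates, two-sided, with Benjamini-Hochberg adjustment over 12166 genes. Standard errors are the log2 fold change over the square root of F. The common biological coefficient of variation was 3.44%. The fit was tested on simulated data. Ratios were tested over libraries by exact permutation (scipy 1.17.1). Floors of 3 counts cover counting error only. Symbols were matched to GENCODE M21 (GRCm38) for exon lengths and coordinates, and the authors may have used another build. Within groups, the chi-square of counts per degree of freedom was 2.17 to 3.98, more than counting error alone gives. No library was thus a copy of another in its group, and all libraries were kept.

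The clock genes and the lists were chosen with earlier results of these data known. Named from each list are up to 3 tested genes with the smallest adjusted p, and for each clock gene its 1 nearest profile. Some genes counted in the lists are not reported by name here. Alternatives were other scalings and filters, DESeq2 1.42.0, limma-voom 3.58.1, a replicate block, rounding down, a 2-fold minimum, the longest transcript and leaving out libraries.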

Additional observations from a re-analysis of the deposited data

How the results depend on the processing

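Over 17 alternative fits, 7 of the 10 clock genes (Clock, Npas2, Arntl, Per2, Per3, Cry1 and Cry2) kept their direction and call in every fit that tested them, and 159 of 167 values in all did so. With no GFP read, Npas2 could not change direction in any fit, so its 16 values among the 159 are no support for that direction. A mean CPM of at least 5 left Npas2, Arntl2 and Ciart untested, with the 7 others called, beside 62.3% of all genes tested. Without 1 library at a time, 8 to 9 clock genes were called (4 higher in each case and 4 to 5 lower), 6505 to 6823 of all genes (52.7% to 55.5%), 6 to 9 second loop and output genes, 10 to 12 kinase, phosphatase and ligase genes, 12 to 14 coregulators, 5 to 8 bHLH-PAS relatives and 6 to 7 glucocorticoid-responsive genes. With GFP 1 and GFP 2 both left out, a choice made after seeing the data, 1 GFP library remained, assumed to vary like the others. The log2 fold change was then -0.45 for Arntl2 and -0.28 for Per1, against -0.74 and -0.30 over all libraries. This fit is among the 17 counted above. The log2 fold change of Ciart, never called, was -0.15 to 0.12 without 1 library at a time and turned to 0.00038 with limma-voom, to 0.12 without ChREBP-beta replicate 3, 0.016 without GFP replicate 2 and 0.12 without GFP replicate 3. A 2-fold minimum left 1 clock gene and 1397 genes in all. With the replicate block 9 clock genes and 6902 of all genes were called, and with DESeq2 9 and 6442. Same-numbered libraries did not deviate together (correlations -0.049 to -0.0023), so the numbers are not taken to pair samples. Without 1 library the log2 difference of the Per3 to Per2 ratio was -0.68 to -0.59, of Cry1 to Cry2 0.11 to 0.21, of Per1 to Per2 -0.035 to 0.11 and of Arntl2 to Arntl -0.098 to 0.25. The last of these was 0.024 over all libraries and -0.095, -0.084 and -0.098 without ChREBP-beta replicate 2, ChREBP-beta replicate 3 and GFP replicate 3. With the longest transcript 6 clock genes with ChREBP-beta and 3 with GFP kept their rank by level. Depth limits Npas2, Arntl2 and Ciart, which had 112, 144 and 271 reads over the ChREBP-beta libraries and 0, 244 and 275 over the GFP libraries.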

Other observations

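Over all genes tested that have a RefSeq promoter window, 1121 had the E-box letters in at least 1 window and 8508 had none. Of those with the letters 38.3% were called higher and 25.4% lower with ChREBP-beta, and of those without 29.0% were called higher and 28.6% lower. Genes with the D-box letters were called higher in 31.5% and lower in 26.4% of 178 cases, and those without in 30.0% and 28.3% of 9451 cases. Genes with the ROR core letters were called higher in 23.2% and lower in 31.8% of 211 cases, and those without in 30.2% and 28.2% of 9418 cases. The carbohydrate response element was found at 11 tested genes, of which 8 were called higher by edgeR and 3 were not called. Of the 9618 genes without it, 30.0% were called higher and 28.3% lower. Of the 11 with it, named after their values were seen, Radx (log2 fold change 1.77), Pde4b (1.32) and Slc43a2 (1.17) had the largest differences. These shares are descriptions without a test, and promoters with and without a motif may differ in base composition, which was not tested.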
